A study of Mus musculus with 6 samples.

Results

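The constitutive proteasome genes and their assembly factors were examined in cultures of TC-1/A9, murine tumour cells deficient in MHC class I on their surface, after treatment with DNA methyltransferase and histone deacetylase inhibitors. The genes were chosen by symbol in the array annotation, namely Psma, Psmb, Psmc, Psmd, Psmf or Psmg followed by a number, with Psme3, Psme4 and Pomp added and the immunoproteasome subunits Psmb8, Psmb9 and Psmb10 left out. RefSeq holds 44 such mouse genes, and 34 of them had a named probe detected on at least 1 array, among 9192 genes tested in all. The other 10 (Psma1, Psma3, Psma6, Psma8, Psmb11, Psmc6, Psmd3, Psmd6, Psmf1 and Psmg4) were not analysed here. The 34 genes lie on 16 chromosomes.

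The DAC/TSA group was grown with 3 μM 5-aza-2'-deoxycytidine (DAC) for 48 h and with 30 ng/ml trichostatin A (TSA) for a further 24 h. The untreated group received neither inhibitor. Each group had 3 cultures, described as biological replicates, and 1 Illumina Mouse WG-6 array per culture. Both groups are of a single C57BL/6 line, derived by in vivo passage from TC-1, lung cells that carry HPV16 E6/E7 and activated Ras oncogenes. The RNA is of whole cultures, so that a change in the cells' make-up and a change of RNA per cell cannot be told apart.

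The proteasome degrades proteins that carry ubiquitin chains, and it supplies most of the peptides that MHC class I molecules present. Its barrel-shaped 20S core is built from rings of alpha subunits (Psma), which gate the entrance, and of beta subunits (Psmb), among which Psmb5, Psmb6 and Psmb7 cut the substrate. The 19S particle at the ends of the core binds, unfolds and threads in the substrate with a ring of ATPases (Psmc) and a set of non-ATPase subunits (Psmd). Dedicated chaperones help to put both parts together. Cells short of proteasome activity are known to raise the subunit genes together through the transcription factor Nfe2l1.

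DAC/TSA-treated cells had higher signals of 15 of the 34 proteasome genes (44.1%) at a false discovery rate of 0.01, where 22.5% of all tested genes were higher. None of the 34 was lower, where 21.4% of all tested genes were lower (limma, Benjamini-Hochberg). At an unadjusted p below 0.05, 18 of the 34 were higher, against 32.4% of all tested genes, and 0 were lower, against 30.3% of all tested genes. The log2 difference was positive for 28 and negative for 6. The median difference was 0.23 on the log2 scale, against 0.01 for all tested genes. Called in either direction were 43.9% of all tested genes.

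The differences were small. The 15 genes that rose did so by 1.27-fold to 1.68-fold, with a median log2 difference of 0.41, against a median absolute difference of 0.61 among all genes called. Only Psmb3 rose by at least 1.5-fold, which is 2.94% of the proteasome genes, against 11.8% of all tested genes. The lower and upper quartiles of the proteasome genes were 0.07 and 0.39 log2, and those of all tested genes -0.29 and 0.33. The plot of the distribution of differences shows that the proteasome genes hardly reached into the negative range, nor into the upper tail.

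**Figure D1:**
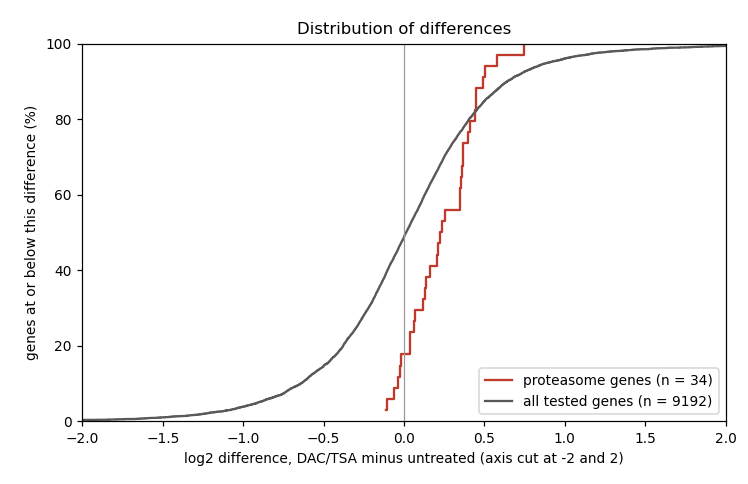
Cumulative share of genes, in percent, against the log2 difference between DAC/TSA-treated and untreated cells, for the 34 proteasome genes and all 9192 tested genes. The proteasome genes run from -0.11 to 0.75, with their median at 0.23, whereas the curve of all tested genes is centred near 0 and goes on past both ends of the axis, which is cut there.

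Signals on the arrays separated the groups for more than the genes that passed. All 3 DAC/TSA arrays lay above all 3 untreated arrays for 19 of the 34 genes (55.9%), and this held for 32.6% of all tested genes. The DAC/TSA arrays lay below the untreated arrays for 0 of the 34, and for 31.3% of all tested genes. The groups overlapped for the other 15 genes. All 34 genes were detected on all 6 arrays. Among the tested genes detected on all 6 arrays, 20.4% were higher and 22.8% were lower.

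**Figure D2:**
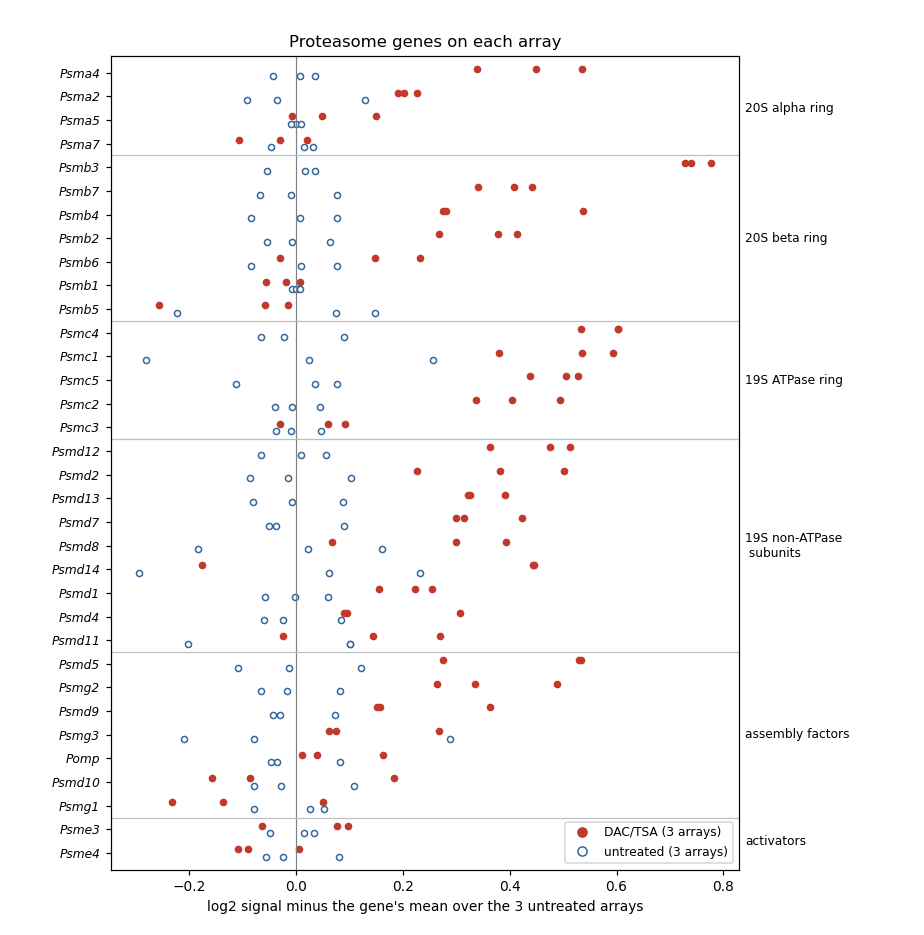
Quantile-normalised log2 signal of each of the 34 proteasome genes on the 3 DAC/TSA arrays (filled) and the 3 untreated arrays (open), as the distance from the gene's mean over the untreated arrays, grouped by role. The DAC/TSA arrays lie to the right of all untreated arrays for 19 genes and to the left of all of them for 0.

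How far the calls held depended on the processing. The median difference stayed between 0.22 and 0.32 under the 16 other settings tried, and none of the 34 genes was lower in any. The number of genes called higher was less stable. It was 2 (5.88%) with median scaling, where 13.3% of all tested genes were higher, and 9 (26.5%, against 20.8%) with neqc background correction. It was 8 without DAC/TSA array 1 (23.5%, against 20.3%) and 6 without DAC/TSA array 2. It was 7 without untreated array 2 (20.6%, against 18.1%) and 8 without untreated array 3 (23.5%, against 18.1%). The count was 10 without DAC/TSA array 3 (29.4%, against 18%) and 12 without untreated array 1 (35.3%, against 23.8%). Without DAC/TSA array 2 the share was 17.6%, close to the 17.2% of all tested genes. Psmb3 and Psmc4 passed in all 16 settings. Psma4, Psmc5 and Psmd12 passed in 15, Psmb7 and Psmc2 in 13, and Psmd5 in 11. Psmb2 and Psmc1 passed in 10, Psmb4, Psmd7, Psmd13 and Psmg2 in 9, and Psmd2 in 8.

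**Figure D3:**
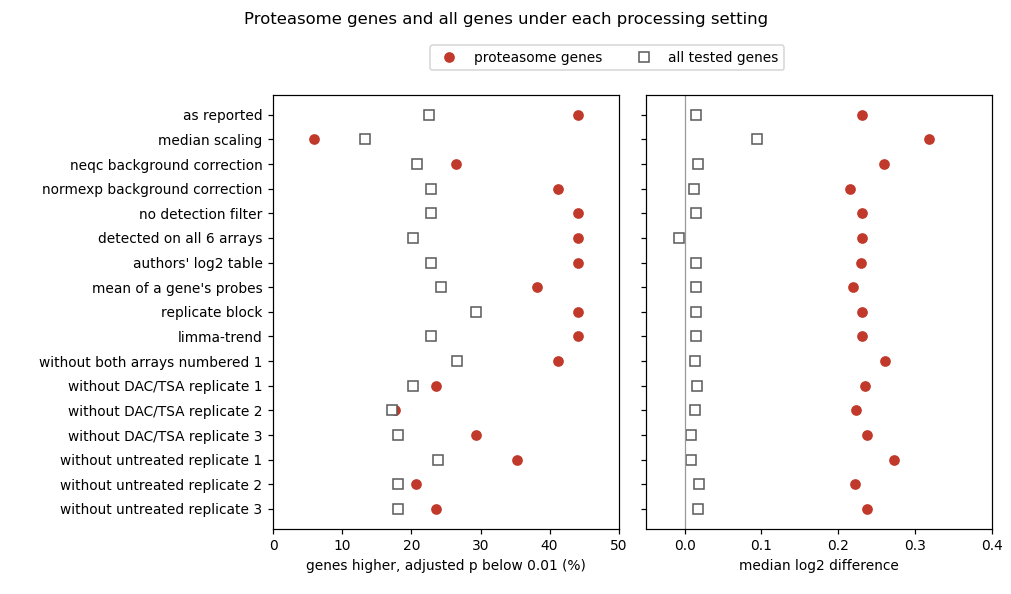
Left, percentage of the 34 proteasome genes and of all tested genes higher in DAC/TSA-treated cells at an adjusted p below 0.01, and right, their median log2 difference, under the reported and the 16 other processing settings. The percentage of proteasome genes called ranges from 5.88 to 44.1, while their median lies above that of all tested genes in every setting.

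Promoter sequences are shown for 4 genes of the core and the ATPase ring: Psmb3 and Psmc4, which passed in every setting, and Psmb5 and Psmb6, catalytic subunits that did not pass. They are RefSeq windows of assembly GRCm38.p6 from 250 bases before to 50 after the start site, read along the gene. Capitals mark matches, on either strand, to TGACNNNGC, the core of the antioxidant response element that Nfe2l1 binds, and to the CCAAT box.
Psmb3 (chr11:97703184-97703483, plus strand): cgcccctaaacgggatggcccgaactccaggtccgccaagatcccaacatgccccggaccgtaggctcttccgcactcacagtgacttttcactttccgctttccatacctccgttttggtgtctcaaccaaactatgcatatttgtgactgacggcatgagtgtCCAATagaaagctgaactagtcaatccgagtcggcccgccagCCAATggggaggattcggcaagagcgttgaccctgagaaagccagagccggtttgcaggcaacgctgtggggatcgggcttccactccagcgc
Psmc4 (chr7:28050043-28050342, minus strand): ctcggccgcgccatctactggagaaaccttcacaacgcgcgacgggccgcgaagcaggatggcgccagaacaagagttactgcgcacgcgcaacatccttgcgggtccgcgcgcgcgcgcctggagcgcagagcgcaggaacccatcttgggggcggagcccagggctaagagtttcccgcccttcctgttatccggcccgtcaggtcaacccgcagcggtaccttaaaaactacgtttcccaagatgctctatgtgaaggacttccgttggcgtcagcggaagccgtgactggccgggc
Psmb5 (chr14:54617946-54618245, minus strand): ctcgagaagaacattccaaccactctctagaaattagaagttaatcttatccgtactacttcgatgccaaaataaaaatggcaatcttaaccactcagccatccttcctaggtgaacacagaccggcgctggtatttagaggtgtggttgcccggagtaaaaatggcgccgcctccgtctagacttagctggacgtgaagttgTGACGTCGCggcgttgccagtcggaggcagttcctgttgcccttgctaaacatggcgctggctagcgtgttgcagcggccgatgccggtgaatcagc
Psmb6 (chr11:70525107-70525406, plus strand): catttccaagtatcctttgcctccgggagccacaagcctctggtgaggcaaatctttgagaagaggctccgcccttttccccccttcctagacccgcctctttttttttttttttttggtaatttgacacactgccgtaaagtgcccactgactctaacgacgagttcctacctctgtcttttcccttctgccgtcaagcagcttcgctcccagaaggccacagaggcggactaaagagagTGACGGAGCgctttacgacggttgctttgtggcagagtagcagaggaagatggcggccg

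The Psmb3 window held CCAAT matches starting at positions -85 and -43, counted from the start site at 0. No match to either motif was found in the Psmc4 window. Psmb5 and Psmb6 each held 1 TGACNNNGC match, at -47 and -9. Of the 34 genes, 28 had a window in the RefSeq table. Among these, 5 (17.9%) had TGACNNNGC and 9 (32.1%) had CCAAT, compared with 16.8% and 43.2% of the 7475 array-tested genes with a window, and with 14.0% and 41.1% of all 27025 genes of the table. Of the 11 genes with a window that rose, only Psmd12 had TGACNNNGC. The median number of CpG dinucleotides, the sites of DNA methylation, was 21 per window for the proteasome genes, 21 for the array-tested genes and 7 for all windows of the table. The 4 windows printed held 19 (Psmb3), 34 (Psmc4), 20 (Psmb5) and 15 (Psmb6).

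In the beta ring, 4 of 7 measured genes rose, among them 1 of the 3 catalytic subunits. Psmb3, a structural subunit, had the greatest rise of the 34 genes. Its log2 signal was 12.48, 12.52 and 12.47 on the DAC/TSA arrays and 11.69, 11.76 and 11.78 on the untreated arrays. The arrays of a group lay close together, and the groups were far apart. The rise was 1.68-fold (95% confidence interval 1.49 to 1.89, adjusted p = 2.19e-05). The structural subunits Psmb4 (1.29-fold, adjusted p = 0.00916) and Psmb2 (1.28-fold, 0.00448) rose as well. Both probes of Psmb2 passed. The structural subunit Psmb1 differed by -0.02 ± 0.08 (SE) and its groups overlapped.

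Of the subunits that carry the cutting sites, Psmb7 rose. Psmb7, which has the trypsin-like site, had 11.88, 11.85 and 11.78 on the DAC/TSA arrays and 11.37, 11.43 and 11.52 on the untreated arrays, a rise of 1.32-fold (1.16 to 1.49, adjusted p = 0.00210). Its 3 other probes had differences of 0.43, 0.42 and 0.34, of which the first passed, and the groups did not overlap on any of its 4 probes. Psmb6, with the caspase-like site, had 11.33, 11.60 and 11.51 on the DAC/TSA arrays and 11.28, 11.37 and 11.44 on the untreated arrays. These groups overlapped, and the difference was 0.12 ± 0.09 (SE, adjusted p = 0.320). Psmb5, with the chymotrypsin-like site, had 8.21, 8.25 and 8.01 on the DAC/TSA arrays and 8.04, 8.41 and 8.34 on the untreated arrays. The 2 highest values were untreated ones, and the difference of -0.11 ± 0.11 did not pass (adjusted p = 0.441). Its confidence interval ran from 0.78-fold to 1.10-fold, and that of Psmb6 from 0.94-fold to 1.25-fold. Whether the changes of Psmb5, Psmb6 and Psmb7 differ from each other was not tested.

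The immunoproteasome subunits Psmb8, Psmb9 and Psmb10 take the places of Psmb5, Psmb6 and Psmb7 in cells that receive interferon, and their values stand beside these. Psmb8 had 8.60, 8.46 and 8.42 in DAC/TSA-treated cells and 5.85, 5.83 and 5.79 in untreated cells, where it was detected on 2 of 3 arrays and lay at the detection floor of 5.83 to 5.84, so that its difference is not exact. Psmb9 had 7.06, 7.19 and 7.03 in DAC/TSA-treated cells and 6.35, 6.42 and 6.38 in untreated cells, and it passed like Psmb8. Psmb10 had 10.11, 10.19 and 10.16 in DAC/TSA-treated cells and 10.34, 10.20 and 10.36 in untreated cells, with the DAC/TSA arrays below the untreated ones, but it did not pass (adjusted p = 0.168). Psmb8 and Psmb10 had 2 kept probes each, of which only the brighter is given. The log2 difference of Psmb8, as measured from that floor, exceeded that of Psmb5 by 2.78, and that of Psmb9 exceeded that of Psmb6 by 0.60, while that of Psmb10 minus that of Psmb7 was -0.54. In each of these 3 pairs the difference within every DAC/TSA array lay on one side of that within every untreated array. Taken singly, 32.6% of all tested genes had every DAC/TSA array above every untreated array, and 31.3% had every one below. The exact two-sided permutation p was 0.1 for each pair, also after adjustment over the 3 pairs. It is the smallest p that 3 arrays against 3 allow, so no conclusion is drawn from it.

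**Figure D4:**
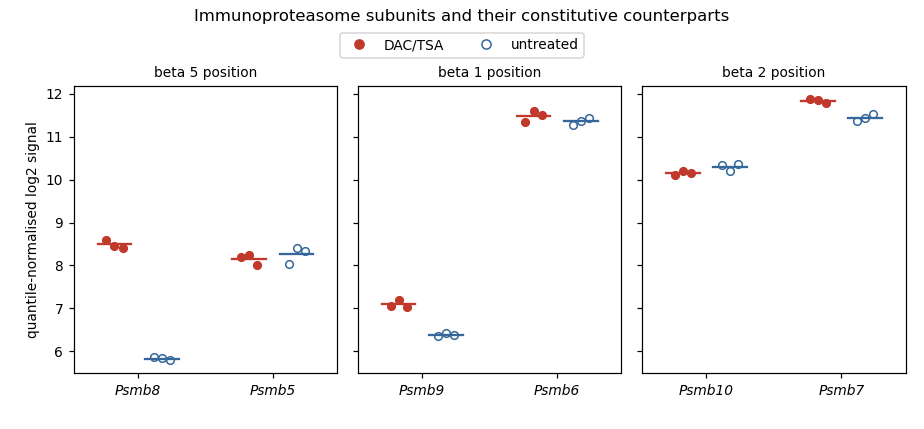
Quantile-normalised log2 signal on each DAC/TSA array (filled) and untreated array (open) for the immunoproteasome subunits Psmb8, Psmb9 and Psmb10 and the constitutive subunits Psmb5, Psmb6 and Psmb7 of the same position, with lines at the group means of 3 arrays. Psmb8 and Psmb9 are higher on the DAC/TSA arrays while Psmb5 and Psmb6 overlap, and Psmb7 is higher while the DAC/TSA arrays of Psmb10 lie slightly below its untreated arrays. Heights of different genes come from different probes and are not comparable.

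In the alpha ring, 1 of 4 measured genes rose. Psma4 had a rise of 1.36-fold (1.19 to 1.54, adjusted p = 0.00132). Psma2 differed by 0.21 ± 0.09 (SE) and did not pass (adjusted p = 0.0650), although its DAC/TSA arrays, from 13.37 to 13.41, lay above its untreated arrays, from 13.09 to 13.31. Psma5 differed by 0.06 and Psma7 by -0.04, with groups that overlapped. The 2 probes of Psma7 gave -0.04 and 0.00, with 11.47, 11.55 and 11.60 on the DAC/TSA arrays and 11.53, 11.61 and 11.59 on the untreated arrays for the brighter one. Neither passed.

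The ATPase ring of the 19S particle had the highest share of calls, with 4 of 5 measured genes higher (80%, against 22.5% of all tested genes). The median difference was 0.49. These ATPases unfold the substrate and open the gate of the core. With median scaling, Psmc4 alone of this ring passed, where 13.3% of all tested genes were higher. Psmc4 had 12.40, 12.40 and 12.33 on the DAC/TSA arrays and 11.89, 11.73 and 11.77 on the untreated arrays. The groups were well separated, and the rise was 1.49-fold (1.32 to 1.69, adjusted p = 0.000181). Psmc5 had 10.73, 10.82 and 10.80 on the DAC/TSA arrays and 10.18, 10.33 and 10.37 on the untreated arrays. This was a rise of 1.40-fold (1.23 to 1.60, adjusted p = 0.000714), and both its probes passed. Psmc1 had 9.88, 10.03 and 10.09 on the DAC/TSA arrays and 9.22, 9.52 and 9.75 on the untreated arrays. Its untreated arrays were widely spread (SD 0.27), which left a wide interval around the 1.42-fold rise (1.16 to 1.73, adjusted p = 0.00776).

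Psmc2 had 13.44, 13.59 and 13.50 on the DAC/TSA arrays and 13.09, 13.06 and 13.14 on the untreated arrays, a rise of 1.33-fold (1.17 to 1.51). A dim second probe of Psmc2, detected on 2 of 3 untreated arrays, differed by 0.30 and did not pass (adjusted p = 0.115). The remaining ATPase, Psmc3, had the groups overlapping and a difference of 0.04 ± 0.08 (SE, adjusted p = 0.695).

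**Figure D5:**
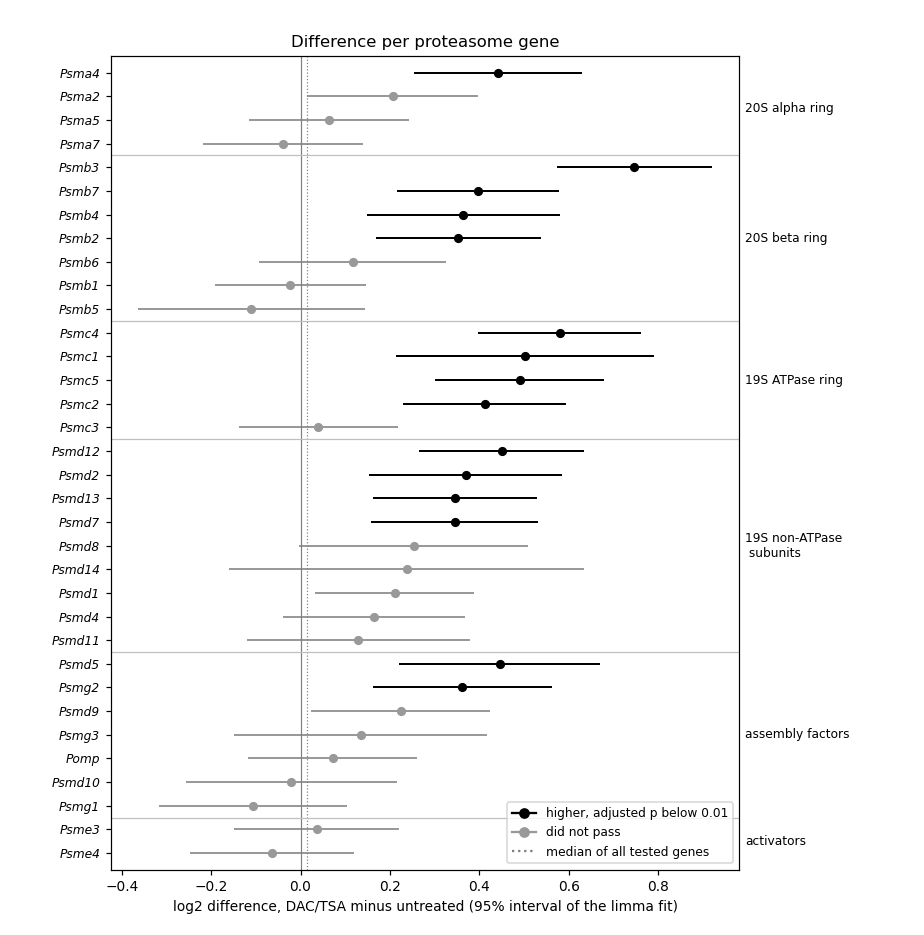
Log2 difference between DAC/TSA-treated and untreated cells for each of the 34 proteasome genes, with the 95% confidence interval of the limma fit on 3 arrays per group, grouped by role and ordered by size. The 15 genes that passed (black) have differences from 0.35 to 0.75, and no interval of the 34 lies wholly below 0.

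Among the non-ATPase subunits of the 19S particle, 4 of 9 measured genes rose, and all 9 differences were positive, from 0.13 to 0.45. Psmd12, a scaffold subunit of the lid, had 10.82, 10.70 and 10.85 on the DAC/TSA arrays and 10.28, 10.40 and 10.35 on the untreated arrays. The groups did not overlap, and the rise was 1.37-fold (1.20 to 1.55, adjusted p = 0.00107). Psmd13, also of the lid, rose by 1.27-fold (1.12 to 1.44, adjusted p = 0.00484).

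For Psmd7 the probes disagreed. Psmd7 is the partner of the deubiquitinase Psmd14 in the lid. The brightest probe of Psmd7 had 11.08, 11.19 and 11.07 on the DAC/TSA arrays and 10.72, 10.86 and 10.73 on the untreated arrays, a rise of 1.27-fold (1.12 to 1.44, adjusted p = 0.00545). A second probe rose by 0.78 on the log2 scale (adjusted p = 5.57e-05). The third, which is annotated to a cDNA clone and not to the RefSeq transcript of the other probes, had 7.21, 7.18 and 7.10 on the DAC/TSA arrays and 7.60, 7.60 and 7.44 on the untreated arrays, and it fell by 0.38 on the log2 scale (adjusted p = 0.00322). It was the only probe of a proteasome gene that was called lower.

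Psmd2, a docking subunit for ubiquitin shuttle factors, was dim. It had 6.40, 6.52 and 6.25 on the DAC/TSA arrays and 5.93, 6.12 and 6.00 on the untreated arrays, where the detection floor lay at 5.83 to 5.84. The rise of 1.29-fold (log2 interval 0.16 to 0.58, adjusted p = 0.00828) is therefore of a signal close to background. Its other probe, undetected on the untreated arrays, differed by 0.19 and did not pass (adjusted p = 0.0924).

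The other non-ATPase subunits did not pass. The ubiquitin receptor Psmd4 differed by 0.16 ± 0.09 (SE) and the large scaffold Psmd1 by 0.21 ± 0.08 (adjusted p = 0.0461), and for both the DAC/TSA arrays lay above the untreated arrays. The differences of Psmd8 (0.25), Psmd14 (0.24) and Psmd11 (0.13) came with overlapping groups. Psmd14, which removes ubiquitin chains from the substrate, had 7.64, 8.26 and 8.26 on the DAC/TSA arrays and 7.53, 8.05 and 7.88 on the untreated arrays. Array 1 was the lowest in both groups, and the SE of 0.18 was the greatest of the 34 genes.

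Of 7 measured assembly factors, 2 rose. Psmd5, a chaperone that binds an ATPase during 19S assembly, had 8.20, 8.20 and 7.95 on the DAC/TSA arrays and 7.79, 7.56 and 7.66 on the untreated arrays, a rise of 1.36-fold (1.17 to 1.59, adjusted p = 0.00377). Psmg2, a chaperone of the alpha ring, had 10.53, 10.38 and 10.30 on the DAC/TSA arrays and 10.12, 10.02 and 9.98 on the untreated arrays. It rose by 1.29-fold (1.12 to 1.47, adjusted p = 0.00618) on this probe. Its 2 dimmer probes, with differences of 0.02 and 0.46, did not pass.

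Psmg1, which forms a pair with Psmg2, differed by -0.11 ± 0.09 (SE, adjusted p = 0.368), with overlapping groups. Psmg3, a further alpha ring chaperone, differed by 0.14, and Pomp, which is needed to complete the beta ring, by 0.07. Neither passed. Psmd9 (0.22, adjusted p = 0.0565) and Psmd10 (-0.02), the other chaperones of the ATPase ring, did not pass. Psmd10, also known as gankyrin, had 10.68, 10.41 and 10.34 on the DAC/TSA arrays and 10.60, 10.47 and 10.42 on the untreated arrays, and its 2 other probes gave 0.15 and 0.17.

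The alternative activators of the core did not pass. Psme3, a nuclear activator, differed by 0.04 ± 0.08 (SE) with overlapping groups. Psme4 had 11.41, 11.30 and 11.32 on the DAC/TSA arrays and 11.49, 11.35 and 11.38 on the untreated arrays, a difference of -0.06 ± 0.08 (adjusted p = 0.537). A dim second probe of Psme4, detected on 3 DAC/TSA arrays and 0 untreated arrays, differed by 0.20 (adjusted p = 0.0596). The interferon-inducible activator genes Psme1 (the brighter of 2 kept probes) and Psme2 differed by 0.07 and 0.08 and did not pass either.

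Across roles, 8 of 14 measured genes of the 19S particle rose (median difference 0.35), 5 of 11 of the 20S core (0.21) and 2 of 7 assembly factors (0.14). These are 57.1%, 45.5% and 28.6%, against 22.5% of all tested genes. The shares of the assembly factors and of the alpha ring (25%) lay close to that of all tested genes. Higher shares were those of the beta ring (57.1%), the ATPase ring (80%) and the non-ATPase subunits (44.4%). Whether these shares differ was not tested. Of the 34 genes, 14 had several kept probes, and in 8 of these the probes differed in sign or in call. Among the 20 further probes, 15 had the sign of the brightest probe. Called higher were 4 of the 20, where 22.5% of all tested genes were higher by their brightest probe. Called lower was 1 of the 20, where 21.4% of all tested genes were lower.

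Of 34 other genes of the ubiquitin-proteasome pathway, 20 were measured. Among these, 3 were higher (15%, against 22.5% of all tested genes) and 1 was lower (5%, against 21.4%), with a median difference of 0.05. The 3 were Psmb8, Psmb9 and Uchl5. Uchl5 is a deubiquitinase that binds the 19S particle, and it had 9.75, 9.98 and 10.02 on the DAC/TSA arrays and 8.93, 9.42 and 9.39 on the untreated arrays (1.59-fold, adjusted p = 0.00198). These are values of the brightest of its 4 kept probes, and its other probes are not given here. The shuttle factor Ubqln4 was lower, with 8.93, 8.75 and 8.92 on the DAC/TSA arrays and 9.34, 9.41 and 9.32 on the untreated arrays (1.41-fold lower, adjusted p = 0.000732). Uba6, a ubiquitin activating enzyme, had 8.71, 8.002 and 9.26 on the DAC/TSA arrays and 7.86, 8.16 and 8.08 on the untreated arrays. The DAC/TSA arrays were widely spread and overlapped the untreated ones, and the 1.54-fold difference did not pass (adjusted p = 0.0547). Usp14, a second deubiquitinase on the particle, differed by -0.04, but its signal of 5.89 to 6.28 lay close to the detection floor. The segregase Vcp, which extracts ubiquitinated proteins from complexes, differed by -0.05. Neither passed.

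The transcription factor genes themselves did not pass. Nfe2l1 had 10.37, 10.49 and 10.57 on the DAC/TSA arrays and 10.46, 10.83 and 10.83 on the untreated arrays, with a difference of -0.23 ± 0.11 (SE, adjusted p = 0.109). Nfe2l2, a related factor, differed by 0.20 ± 0.10 (adjusted p = 0.123). Nfe2l1 is activated by processing of its protein, which arrays do not measure.

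The groups separated in the number of detected probes, which was 15008 to 15783 on the DAC/TSA arrays and 14704 to 14802 on the untreated arrays. The detection floor was 5.73 to 5.80 log2 on the DAC/TSA arrays and 5.83 to 5.84 on the untreated arrays. The part of these measures in the proteasome values was not tested. Arrays of a group correlated at r = 0.992 or above across probes. The median signal of the proteasome genes was 11.21 to 11.37 log2 on the DAC/TSA arrays and 11.11 to 11.24 on the untreated arrays. Of 8 leukocyte markers, 2 were measured, of which Laptm5 was higher, being undetected in untreated cells, and Cd14 was lower. The summed linear signal of Laptm5 and Cd14 was 271 to 274 in DAC/TSA-treated cells and 277 to 293 in untreated cells. Of 5 epithelial markers, 3 were measured (Krt8, Krt18 and Krt19, all higher), while Epcam and Cdh1 had no named probe among those kept. The summed signal of the 3 was 650 to 806 in DAC/TSA-treated cells and 152 to 168 in untreated cells. Krt18 and Krt19 were undetected in untreated cells and kept only through the DAC/TSA arrays, so the untreated sum includes undetected signal. The summed signal of the 4 measured of 5 mesenchymal markers was 7358 to 8203 in DAC/TSA-treated cells and 11592 to 11957 in untreated cells. Col1a2 had no named probe among those kept. Vim and Col1a1 were lower, Thy1 was higher and Pdgfra did not pass. Most of this sum is the signal of Vim. Its mean in untreated cells was 13.46 log2, against 5.84 to 8.17 for Col1a1, Pdgfra and Thy1. The leukocyte markers Ptprc and Cd3e had no named probe among those kept. The part of these changes in the proteasome values was not tested. No endothelial marker had a named probe among those kept.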

How the data were processed

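Illumina Mouse WG-6 bead arrays, 1 for each of 6 TC-1/A9 cultures, measured RNA. The signal intensity of each probe, which the authors extracted with BeadStudio, is linear and not normalised. Beside each signal stands a detection p-value, also as deposited. The deposited log2 values were quantile-normalised by the authors with lumi and limma, and they differed from those computed here by at most 0.0125.

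Groups were taken from the sample titles. Intensities of 45281 probes were quantile-normalised and log2-transformed, and no background was subtracted. Kept were 17445 probes whose detection p did not exceed 0.01 on 1 or more of the 6 arrays. Symbols came from the platform annotation and were updated through Entrez identifiers to RefSeq (GRCm38.p6). Of the kept probes, 13943 had 1 symbol, 7 had several and 3495 are unnamed here. A gene was represented by its brightest kept probe (mean log2 over all arrays), and a symbol counted only as a whole, so that Psmc3ip is not Psmc3.

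DAC/TSA arrays were compared with untreated arrays with limma 3.58.1 in R 4.3.3 (lmFit, eBayes, two-sided, Benjamini-Hochberg over all kept probes, false discovery rate 0.01). This limma model gave all adjusted p-values, the standard errors of differences and the 95% intervals. The number of arrays limits the precision. The fit was also run on simulated data with independent noise on each array. That run therefore does not cover the correlation between arrays given below.

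Every measured proteasome gene was named by its role. Values on each array were given for the 6 largest changes that passed in each direction, for the catalytic subunits and for genes whose probes disagreed. From the pathway list, the immunoproteasome genes, Nfe2l1 and genes that passed with a change of at least 1.5-fold were to be named, and Ubqln4, Uba6, Usp14, Vcp and Nfe2l2 were added after their values were seen. The members, lists and tests were chosen with earlier results of these data known.

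Arrays of both groups share the numbers 1 to 3. Deviations from the group means correlated between same-numbered arrays at r = 0.63, 0.24 and 0.36 across probes, so the numbers were treated as pairs in an alternative fit. Arrays numbered 2 and 3 also correlated across numbers, at 0.38 and 0.37. Other alternatives were median scaling, neqc (offset 16), normexp (offset 50), other detection filters, the authors' table, the mean of a gene's probes, limma-trend, a false discovery rate of 0.05 and leaving out arrays. Plots were made in Python 3.11.15 (matplotlib 3.10.9).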

Additional observations from a re-analysis of the deposited data

How the results depend on the processing

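The number of proteasome genes called higher was 15 as reported (44.1%, against 22.5% of all tested genes). With median scaling it was 2 (5.88%), below the 13.3% of all tested genes. With neqc it was 9 (26.5%, against 20.8%). When 1 array was left out it was 6 to 12 (17.6% to 35.3%, against 17.2% to 23.8%). The number called lower was 0 in all settings. The median log2 difference of the proteasome genes, 0.23 as reported, was 0.32 with median scaling and 0.26 with neqc. It was 0.26 without both arrays numbered 1, and 0.22 to 0.27 when 1 array was left out. The median of all tested genes also moved with median scaling, to 0.09 from 0.01. The proteasome median exceeded it by 0.22 both as reported and with median scaling. Median scaling called 1219 of all tested genes higher and 776 lower. Higher calls then made up 61.1% of all calls, against 51.3% as reported. Of the 15 genes, 2 passed in every setting. With the replicate number as a block, 15 proteasome genes were higher (44.1%), the same 15 as without it, and no call of a proteasome gene changed. The share of all tested genes called higher rose to 29.4% in this setting, from 22.5% as reported, and 27.3% were lower.

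Differences near 0 changed sign. With median scaling, Psma7 was at 0.015, Psmb1 at 0.037, Psmd10 at 0.061 and Psme4 at 0.00027. When probes of a gene were averaged, Psmd10 was at 0.099 and Psme4 at 0.068. Without both arrays numbered 1, Psme3 was at -0.011. With 1 array left out, Psmd10 ranged from -0.12 to 0.050, and it was positive without DAC/TSA array 2 (0.011), DAC/TSA array 3 (0.050) or untreated array 1 (0.034). None of these passed.

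The count of other pathway genes called lower was 1 of 20 as reported and 0 with median scaling. It was 2 with normexp, with averaged probes, with the replicate block, with limma-trend and at a false discovery rate of 0.05. It was 4 without both arrays numbered 1, and 1 to 4 when 1 array was left out. Of all tested genes, 21.4% were lower as reported and 8.44% with median scaling. The share was 21.5% to 27.3% with normexp, averaged probes, the replicate block and limma-trend. It was 24.9% without both arrays numbered 1, and 16.1% to 22.1% when 1 array was left out. The cause of the changes in the count was not tested.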
